A study of Mus musculus with 9 samples.

Results

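The genes described here are 48 members of the Wnt pathway and its immediate surroundings, chosen by symbol from the 35275 genes of a mouse tumor RNA sequencing table. They comprise 16 Wnt ligands, 12 Frizzled and Lrp receptors, 7 genes of the Lgr and R-spondin system, 4 feedback and effector genes (Axin2, Znrf3, Rnf43 and Lef1), 8 secreted antagonists and Tnfrsf19. Members were matched by gene name and not by a threshold on their values, although the list was drawn up with earlier results of these data known. All 48 were listed in the table, and 39 of them had enough counts to be tested, out of 15821 tested genes.

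The study asked how Talazoparib, an inhibitor of the DNA repair enzyme PARP, changes mammary tumors when it is given free (i.v. TLZ) or in a liposome (NanoTLZ). Tumors came from Brca1Co/Co;MMTV-Cre;p53+/- mice, whose ages the labels do not give. The 9 tumors fell into 3 groups of 3 (saline, i.v. TLZ and NanoTLZ), taken after 5 doses given 3 times a week. Talazoparib was dosed at 0.33 mg/kg in either form, and the saline mice received no drug. Saline, free drug and liposomes were all given intravenously (i.v.). All 3 groups carried the same alleles: a conditional Brca1, Cre driven by the MMTV promoter, which is active mainly in mammary epithelium, and 1 lost copy of p53. Cells of the tumor in whose lineage that promoter was never active keep Brca1. No tumor given empty liposomes was analysed here, so the liposome and the drug inside it cannot be told apart in NanoTLZ tumors.

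Wnt ligands are secreted lipid-modified proteins that bind Frizzled receptors together with the co-receptors Lrp5 or Lrp6. In the canonical branch this stops the destruction of beta-catenin, which then acts with Tcf and Lef1 on target genes that include the feedback inhibitors Axin2, Rnf43 and Znrf3. In the mammary gland Wnt signals are known for maintaining stem cells and for side branching, and ectopic Wnt1 was among the first oncogenes found in mouse mammary tumors.

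Total counts per tumor ran from 17538380 to 21194980, and values are given as CPM (counts scaled by library size and TMM factor) unless stated otherwise. The third saline tumor stood apart from the rest: its Spearman correlation with the other 8 tumors over the tested genes was 0.843 to 0.875, while those 8 correlated with each other at 0.900 to 0.970. It is therefore named wherever it decides a value. The 7 luminal epithelial markers summed to 3254 to 7557 CPM in the saline tumors and 3232 to 6031 CPM in the treated tumors. RNA of epithelial genes was thus present in every tumor.

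Promoters of 3 members were read to show the DNA at genes whose values are described below. Tnfrsf19 was chosen because it had the lowest p among the members against saline, Wnt9a because it was the ligand that separated treated from saline tumors, and Axin2 because it is the usual readout of canonical signaling. Each window covers 250 bases before and 50 bases after a RefSeq start site (GRCm38.p6) and is written 5′ to 3′ on the strand of the gene, with the letters CTTTGAT or their reverse complement ATCAAAG, a core bound by Tcf and Lef factors, in capitals. Tnfrsf19 has 2 such start sites on the minus strand, at chr14:61037938-61038237 for the downstream window and chr14:61046806-61047105 for the upstream one. The Wnt9a window lies at chr11:59306680-59306979 and the Axin2 window at chr11:108920099-108920398, both on the plus strand.
Tnfrsf19 downstream start: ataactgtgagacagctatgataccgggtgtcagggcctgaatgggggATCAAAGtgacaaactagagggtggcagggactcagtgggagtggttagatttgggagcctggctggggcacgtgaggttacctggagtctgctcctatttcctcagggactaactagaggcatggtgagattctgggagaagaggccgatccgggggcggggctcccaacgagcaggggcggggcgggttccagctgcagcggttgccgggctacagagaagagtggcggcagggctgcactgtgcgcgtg
Tnfrsf19 upstream start: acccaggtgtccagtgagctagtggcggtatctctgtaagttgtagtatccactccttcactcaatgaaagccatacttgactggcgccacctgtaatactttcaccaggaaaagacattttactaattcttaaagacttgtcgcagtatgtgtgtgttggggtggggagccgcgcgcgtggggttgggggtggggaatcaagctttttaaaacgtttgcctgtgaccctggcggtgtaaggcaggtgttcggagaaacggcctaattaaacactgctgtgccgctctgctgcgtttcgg
Wnt9a: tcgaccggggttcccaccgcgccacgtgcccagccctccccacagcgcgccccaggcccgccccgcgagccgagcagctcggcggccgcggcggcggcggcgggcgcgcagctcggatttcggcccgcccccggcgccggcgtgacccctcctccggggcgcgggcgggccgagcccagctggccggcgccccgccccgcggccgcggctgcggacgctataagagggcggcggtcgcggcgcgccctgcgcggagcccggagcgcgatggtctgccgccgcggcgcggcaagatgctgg
Axin2: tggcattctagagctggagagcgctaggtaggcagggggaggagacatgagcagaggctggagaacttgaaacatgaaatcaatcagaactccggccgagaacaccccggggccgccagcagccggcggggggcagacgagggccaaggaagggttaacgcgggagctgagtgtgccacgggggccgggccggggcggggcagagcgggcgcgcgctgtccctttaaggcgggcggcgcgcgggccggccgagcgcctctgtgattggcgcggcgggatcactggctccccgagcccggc

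The downstream Tnfrsf19 window held 1 match, which began 202 bases before the start site, and the other 3 printed windows held none. RefSeq windows were found for 32 of the 48 members, 40 windows in all. Searched on both strands, the motif occurred in 3 of these 40 windows (7.5%), in 1 window each of Tnfrsf19, Wnt5b and Wnt11. Among all 32851 promoter windows of the same length 1225 (3.73%) held it. A match describes letters only and shows no binding.

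Across the whole gene set no member passed an adjusted p of 0.05 in edgeR's quasi-likelihood test in any of 4 comparisons: i.v. TLZ against saline, NanoTLZ against saline, NanoTLZ against i.v. TLZ, and all 6 treated tumors against saline. Few genes of any kind passed it: 0% of the tested genes for i.v. TLZ, 0.00632% for NanoTLZ, 0% between the formulations and 0.019% for all treated tumors. Both comparisons with saline use the same 3 saline tumors, so their values are given side by side and not counted as independent. With 3 tumors per group, p-values measure only the spread among these tumors, which the study describes as coming from 3 mice per group.

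At an unadjusted p under 0.05, 4 members were higher and 3 lower after i.v. TLZ, where 4.91% of all tested genes were higher and 5.47% lower. With NanoTLZ 1 member was higher and 4 were lower, against 3.51% and 5.49% of all tested genes. Between NanoTLZ and i.v. TLZ 0 members were higher and 1 was lower, against 0.449% and 1.23%. For all treated tumors against saline 2 were higher and 4 lower, against 4.8% and 8.29%. As 1 member of 39 is already 2.56%, nothing particular to the members was read from these counts. They also depended on the second saline tumor: without it 12, 11 and 16 of 40 members had an unadjusted p under 0.05 for i.v. TLZ, NanoTLZ and all treated tumors, against 16.1%, 15.6% and 19.3% of all tested genes. With that tumor included the members numbered 7, 5 and 6 of 39, against 10.4%, 8.99% and 13.1%. The median log2 fold change of the members was -0.09 after i.v. TLZ and -0.03 after NanoTLZ, beside -0.03 and -0.09 for all tested genes.

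**Figure D1:**
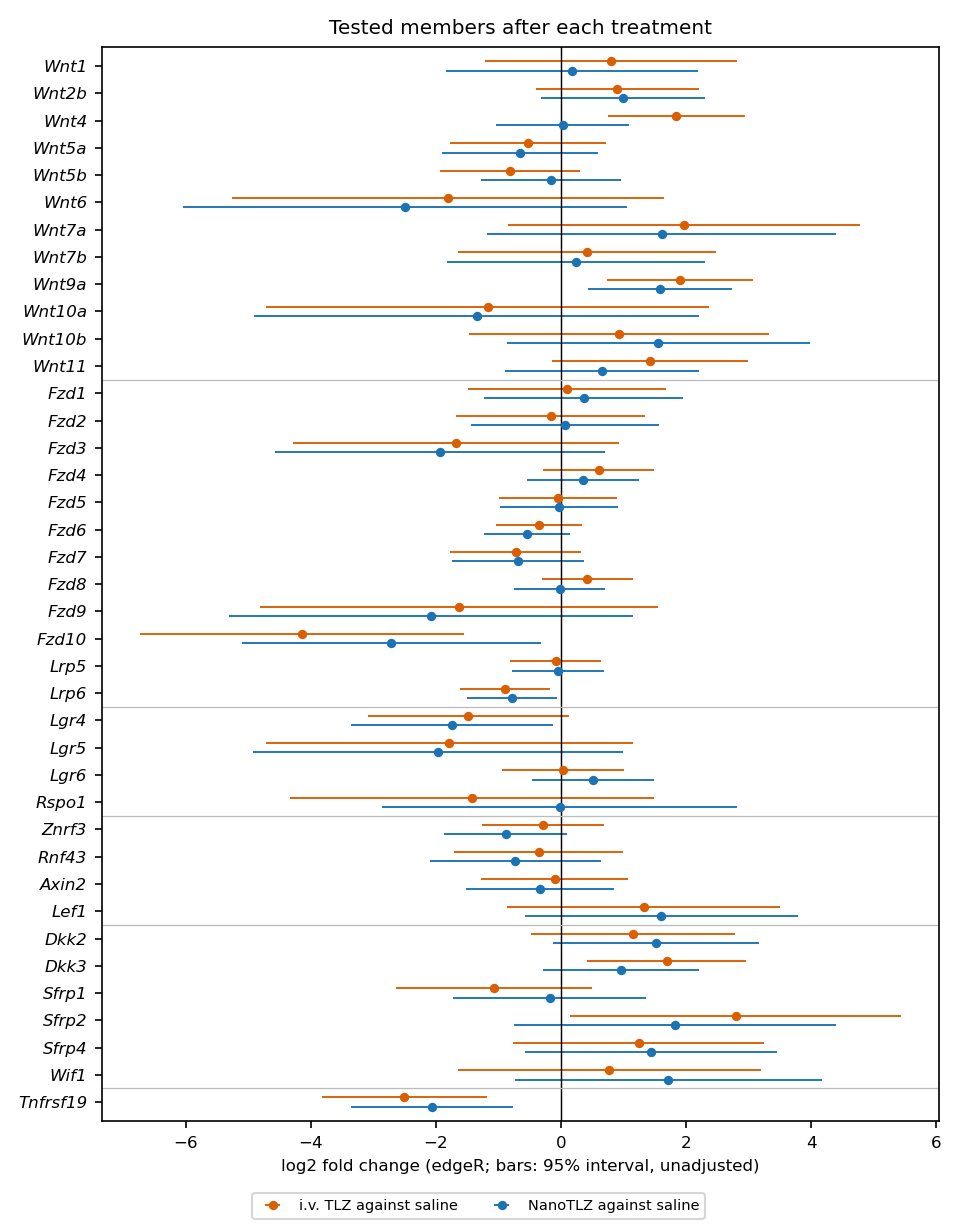
Log2 fold change against saline for the 39 tested members, in the order of their roles, for i.v. TLZ (orange) and NanoTLZ (blue); bars are unadjusted 95% intervals from edgeR and grey lines part the roles. Tnfrsf19, at the bottom, lies left of zero for both treatments (-2.51 and -2.07) and Wnt9a lies right of it (1.90 and 1.59).

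Tnfrsf19, also called Troy, is a receptor of the tumor necrosis factor receptor superfamily that is known as a Wnt target and as a stem cell gene in intestine. It spans chr14:60963875-61046490 on the minus strand (GENCODE, GRCm38). It was the only member whose 6 treated tumors all lay below the 3 saline tumors, a pattern held by 2.67% of all tested genes. The saline tumors had 17.6, 15.7 and 31.6 CPM. The i.v. TLZ tumors had 3.83, 6.17 and 1.41 CPM. The NanoTLZ tumors had 6.78, 2.89 and 5.79 CPM. The highest treated tumor was thus below the lowest saline tumor, and the treated groups overlapped each other.

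The fitted level of Tnfrsf19 was 5.68-fold lower after i.v. TLZ (log2 -2.51, SE 0.59, unadjusted p = 0.00174, edgeR adjusted p = 0.405). After NanoTLZ it was 4.19-fold lower (log2 -2.07, SE 0.58, unadjusted p = 0.00526, edgeR adjusted p = 0.552). The NanoTLZ and i.v. TLZ tumors differed by 0.44 on the log2 scale, with a 95% interval from -0.82 to 1.70, so differences within that interval are not excluded. Without the third saline tumor, where the gene was highest, the log2 differences were -2.11 and -1.66. Tnfrsf19 is also a gene that the study picked from these tumors for follow-up, so its direction here is not independent evidence. The study reports that real-time PCR bore out its sequencing result for the gene. That PCR used RNA from these samples and from additional mice, and its values were not analysed here.

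The call for Tnfrsf19 depended on the tool. DESeq2 on the 2 groups compared called it at an adjusted p under 0.05 with either treatment, in fits that called 0.534% and 1.01% of all genes with an adjusted p. It was the 1 member called in each of these fits. In the DESeq2 fit of all 9 tumors 3 members were called after i.v. TLZ (Tnfrsf19, Wnt4 and Wnt9a, against 1.12% of all genes). After NanoTLZ that fit called 0 members (against 0.566%). There 5 of 44 members had an unadjusted p under 0.05 for NanoTLZ, against 7.26% of all genes. For all treated tumors against saline, Tnfrsf19 and Wnt9a were called by DESeq2 with saline and treated as 2 groups (background 2.19%) and with 3 groups (background 1.71%). With DESeq2's Cook distance filter switched off, Fzd10 joined them after i.v. TLZ and for all treated tumors. The calls were then 4 members after i.v. TLZ (background 1.42%) and 3 for all treated tumors (2.11%). After NanoTLZ the 1 call of that fit was Tnfrsf19 (background 0.851%), and Fzd10 was not called (DESeq2 adjusted p = 0.198). Between the 2 formulations DESeq2 called 0 members in its 3 fits, whose backgrounds were 0.0705%, 0.0119% and 0.0395%. In each of these fits 1 member had an unadjusted p under 0.05, against 3.0%, 1.73% and 2.06% of all genes.

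**Figure D2:**
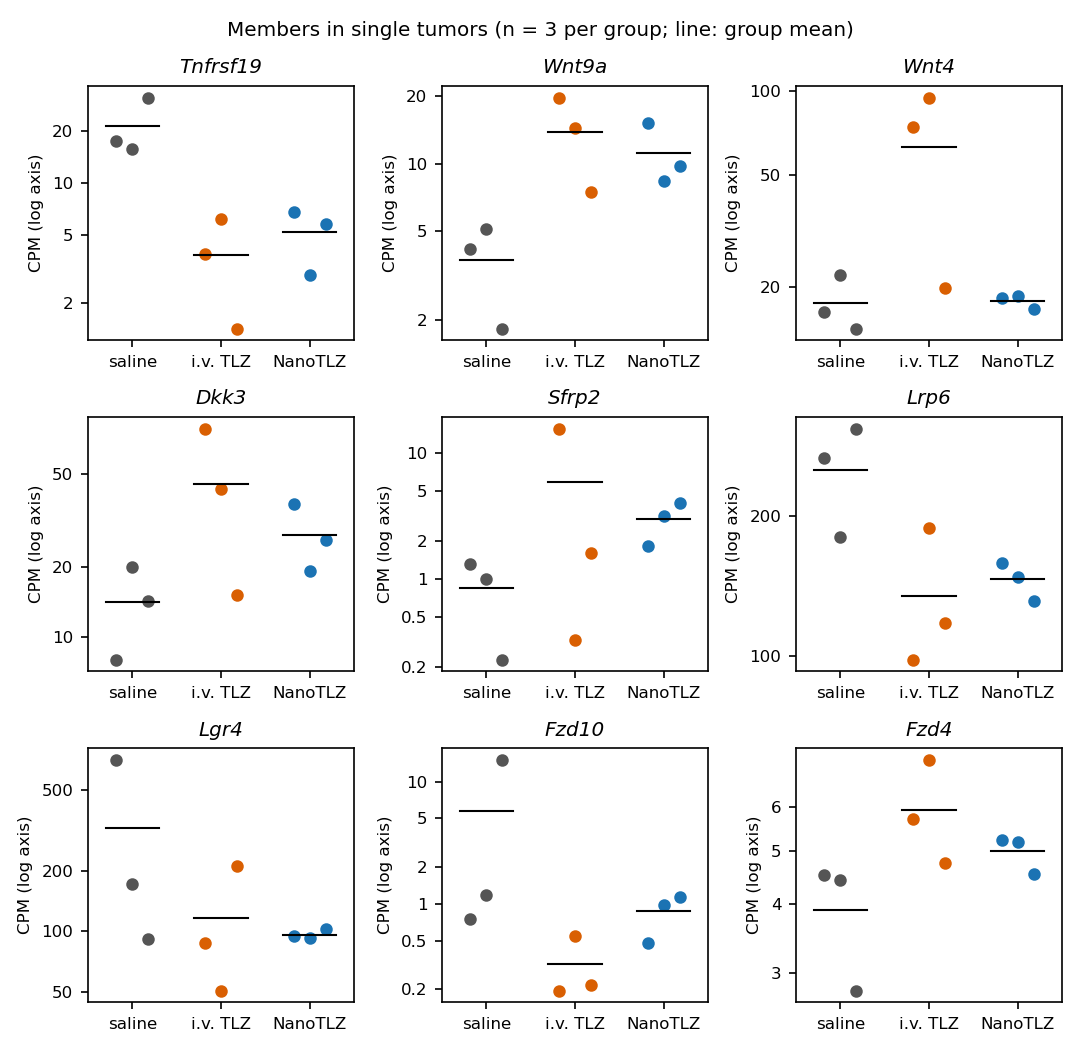
CPM of 9 members in each of the 9 tumors on log axes, 3 tumors per group from left to right in replicate order; black lines are group means. Tnfrsf19 separates the saline tumors (15.7 to 31.6 CPM) from the treated ones (1.41 to 6.78 CPM), Wnt4 is high in 2 i.v. TLZ tumors, and Fzd10 and Lgr4 are each high in 1 saline tumor.

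Among the ligands, Wnt7b was the most abundant per length over the 9 tumors, at a mean of 70.2 CPM per kilobase of exon. Wnt5b followed at 34.7 CPM per kilobase, Wnt10a at 11.4 and Wnt4 at 7.81 on the same scale. Wnt7b, a ligand that mammary epithelium is known to make, ranged from 47.4 to 105 CPM per kilobase in 8 tumors, where it made up 44.2% to 60.1% of all ligand signal per kilobase. In the third saline tumor it was at 1.90 CPM per kilobase and 2.06% of the ligand signal.

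In that tumor Wnt10a took the leading place, with 59.8% of the ligand signal per kilobase, and Wnt6 added 11.3%. Wnt6 and Wnt10a are neighbors on chromosome 1 on the same strand, 6193 bases apart, and both were highest of all 9 tumors there. Wnt6 stood at 22.7 CPM there and at 0.191 to 5.29 CPM in the other 8 tumors. Wnt7a and Wnt1 went the other way, with 0 and 0.229 CPM in the third saline tumor.

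**Figure D3:**
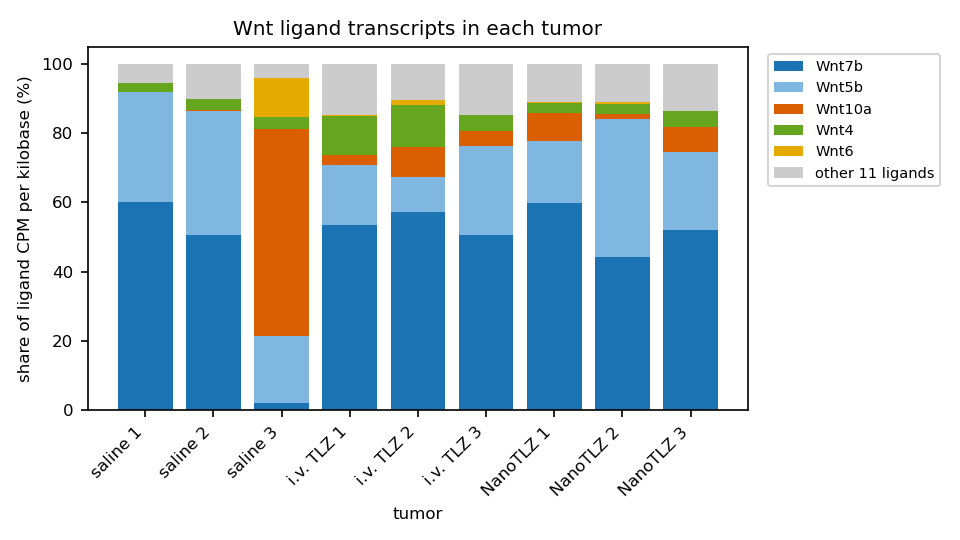
Share of the summed CPM per kilobase of the 16 ligands held by single ligands in each tumor; bars add to 100%. Wnt7b holds the largest share in 8 tumors, while the third saline tumor has 59.8% Wnt10a and 2.06% Wnt7b.

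Wnt10a also showed how far 1 control tumor can set a direction. The other 2 saline tumors had 0.343 and 0.667 CPM, while the third had 136 CPM. The i.v. TLZ tumors had 11.1, 39.2 and 10.7 CPM, and the NanoTLZ tumors 30.9, 6.33 and 16.6 CPM. All 6 treated tumors therefore lay between 2 very low saline tumors and 1 very high one. With all tumors i.v. TLZ differed from saline by -1.17 and NanoTLZ by -1.35 on the log2 scale. Leaving out the third saline tumor turned these to 5.32 and 5.15, with edgeR adjusted p = 0.341 and 0.529.

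Wnt9a was the only ligand whose 6 treated tumors all lay above the 3 saline tumors. The saline tumors had 4.18, 5.10 and 1.83 CPM. The i.v. TLZ tumors had 19.7, 14.4 and 7.46 CPM. The NanoTLZ tumors had 15.3, 8.34 and 9.77 CPM. Its lowest treated tumor exceeded its highest saline tumor, and the 2 treated groups overlapped. The log2 difference was 1.90 after i.v. TLZ (SE 0.52, unadjusted p = 0.00449, edgeR adjusted p = 0.417) and 1.59 after NanoTLZ (SE 0.52, unadjusted p = 0.0119, edgeR adjusted p = 0.552). Leaving out the third saline tumor gave 1.59 and 1.29. Without the first NanoTLZ tumor the NanoTLZ difference of Wnt9a was 1.29 and its unadjusted p rose above 0.05 in edgeR.

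Together with Fzd4, Wnt9a made 2 members whose treated tumors all lay above saline, against 2.81% of all tested genes. The Wnt9a gene lies 16175 bases from Wnt3a on chromosome 11. Wnt3a had at most 3 counts in any tumor.

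Wnt4, a ligand that acts downstream of progesterone in mammary side branching, was the 1 member with an unadjusted p under 0.05 between the 2 formulations. Saline tumors had 16.2, 22.1 and 14.2 CPM. The i.v. TLZ tumors had 74.2, 94.5 and 19.8 CPM. NanoTLZ tumors had 18.3, 18.6 and 16.7 CPM. So 2 of the 3 i.v. TLZ tumors were high, the third lay within the saline range, and all NanoTLZ tumors lay within it too. The log2 difference was 1.84 after i.v. TLZ (SE 0.49, edgeR adjusted p = 0.417), 0.03 after NanoTLZ (95% interval -1.04 to 1.09) and -1.82 for NanoTLZ against i.v. TLZ (SE 0.49, unadjusted p = 0.00407, adjusted p = 0.9999).

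The remaining ligands did not reach an unadjusted p under 0.05 against saline in either edgeR comparison. Wnt5b, a mostly non-canonical ligand, had 138, 151 and 47.3 CPM in saline tumors, 72.5, 49.2 and 69.5 CPM after i.v. TLZ and 74.8, 171 and 55.0 CPM after NanoTLZ. Its groups overlapped throughout. Wnt5a, its close relative, had 13.4 to 33.9 CPM in saline tumors and 7.89 to 33.5 CPM in treated tumors. Wnt11, another non-canonical ligand, had 2.10 to 15.7 CPM in saline tumors, 11.1 to 30.6 CPM after i.v. TLZ and 7.13 to 21.6 CPM after NanoTLZ. DESeq2 on 9 tumors gave it an unadjusted p of 0.0407 for i.v. TLZ, with an adjusted p of 0.398. Wnt2b had 1.20 to 1.97 CPM in saline tumors and 1.51 to 5.33 CPM after i.v. TLZ, which overlapped. Its NanoTLZ tumors had 2.36, 4.53 and 2.58 CPM, all above saline, with a log2 difference of 0.99 (95% interval -0.32 to 2.30). Wnt10b, a ligand of early mammary development, ranged from 0.457 to 12.7 CPM over the 9 tumors, with low and high tumors in the saline and i.v. TLZ groups. Wnt3, Wnt3a, Wnt9b and Wnt16 were below the count filter, with at most 12 counts in a tumor, and Wnt3 and Wnt3a did not exceed the floor of 3 counts in any tumor.

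Among the receptors Fzd7, a receptor known from mammary stem cells and basal-like breast cancer, was the most abundant per length, with a mean of 105 CPM per kilobase. Lrp5 had 34.2, Fzd1 27.2, Fzd6 21.2 and Lrp6 13.0 CPM per kilobase. Fzd7 itself varied within groups: its saline tumors had 843, 273 and 808 CPM, and its treated tumors ran from 266 to 600 CPM. The 2 groups overlapped, and the log2 differences of -0.73 and -0.69 had edgeR adjusted p = 0.597 and 0.649.

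Lrp6, a co-receptor of canonical signaling, was lower in both comparisons at an unadjusted p under 0.05. Saline tumors had 267, 180 and 308 CPM. After i.v. TLZ the values were 98.3, 189 and 118 CPM, and after NanoTLZ 159, 148 and 132 CPM. The second i.v. TLZ tumor overlapped the second saline tumor, and the other 5 treated tumors lay below every saline tumor. The log2 differences were -0.90 and -0.78 (SE 0.32 in each, edgeR adjusted p = 0.443 and 0.552), that is 1.86-fold and 1.72-fold lower. Without the third saline tumor, where Lrp6 was highest, they were -0.71 and -0.58 with unadjusted p = 0.0593 and 0.111 in edgeR, and leaving out some single treated tumors also took p above 0.05. Its paralog Lrp5 had log2 differences of -0.09 (95% interval -0.82 to 0.64) and -0.05 (95% interval -0.78 to 0.68).

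Fzd10 and Fzd4 stood at the low end of the receptors per length, at 0.705 and 0.736 CPM per kilobase. Fzd10 was high only in the third saline tumor, at 15.1 CPM, beside 0.743 and 1.19 CPM in the other saline tumors. The 6 treated tumors had 0.194 to 1.14 CPM. Its log2 differences of -4.14 and -2.71 (edgeR adjusted p = 0.417 and 0.552) became -1.58 and -0.14 without that tumor.

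Fzd4, the receptor known for retinal vessel growth, had 4.52, 4.43 and 2.79 CPM in saline tumors. After i.v. TLZ it had 5.71, 7.32 and 4.76 CPM, and after NanoTLZ 5.24, 5.18 and 4.55 CPM. The groups did not overlap, but the lowest treated tumor was only just above the highest saline tumor. The log2 differences of 0.60 and 0.35 had unadjusted p = 0.166 and 0.402 in edgeR.

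The other Frizzled receptors overlapped between treated and saline tumors. Fzd5 had 24.5 to 96.5 CPM in saline tumors and 47.2 to 69.5 CPM in treated tumors, so its saline tumors lay on both sides of all treated ones. Fzd1 had 59.1, 35.0 and 212 CPM in saline tumors and 51.6 to 216 CPM in treated tumors. Fzd2 had 51.9, 4.86 and 60.6 CPM in saline tumors and 24.4 to 48.4 CPM in treated tumors. Their log2 differences after i.v. TLZ and NanoTLZ were 0.09 and 0.36 for Fzd1 and -0.17 and 0.06 for Fzd2. Without the third saline tumor they were 1.22 and 1.51 for Fzd1 and 0.32 and 0.56 for Fzd2. In that edgeR fit Fzd1 had unadjusted p = 0.0848 and 0.0416 and adjusted p = 0.577 and 0.748. Fzd6 and Fzd8 varied little, with a 2.34-fold and a 2.14-fold range over the 9 tumors. Fzd8 had 31.1, 35.8 and 24.4 CPM after i.v. TLZ and 22.2, 24.3 and 20.7 CPM after NanoTLZ, so its NanoTLZ tumors lay below the i.v. TLZ ones, by a small margin at their closest. The log2 difference of -0.44 had a 95% interval from -1.17 to 0.28 in edgeR.

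Lgr4, Lgr5 and Lgr6 are receptors for the R-spondins, which strengthen Wnt signals by removing Znrf3 and Rnf43 from the cell surface. Lgr6 and Lgr4 were the abundant ones per length, at 38.9 and 30.4 CPM per kilobase, while Lgr5 had 0.320. Lgr4 was set by 1 tumor: the saline tumors had 709, 172 and 92.1 CPM, and the treated tumors 50.8 to 210 CPM. Its log2 difference was -1.48 after i.v. TLZ (unadjusted p = 0.0661) and -1.75 after NanoTLZ (unadjusted p = 0.0363, edgeR adjusted p = 0.552). Without the first saline tumor these were -0.18 and -0.43.

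Lgr5, the classical marker of intestinal stem cells and a Wnt target, had 17.8 CPM in the third saline tumor and 0.801 and 0.571 CPM in the other saline tumors. Treated tumors had 0.382 to 4.65 CPM. Its direction rested on that tumor: the log2 differences of -1.79 and -1.97 turned to 1.43 and 1.27 without it, and none of these had an unadjusted p under 0.05. Lgr6, a marker of progenitors in skin and mammary gland, had 314, 237 and 145 CPM in saline tumors, 407, 150 and 152 CPM after i.v. TLZ and 319, 297 and 377 CPM after NanoTLZ. Its groups overlapped. Of the R-spondins only Rspo1 passed the filter, and it ranged from 0.343 to 16.2 CPM with both ends in saline tumors. Rspo4 had 49 counts in the second NanoTLZ tumor and at most 3 in each of the others. Rspo2 and Rspo3 had at most 4 and 21 counts in a tumor.

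The feedback genes Axin2, Znrf3 and Rnf43 report canonical activity in many tissues. Here neither these 3 nor Lef1 separated the treated from the saline tumors. Axin2, a scaffold of the destruction complex, had 10.7, 12.6 and 14.0 CPM in saline tumors, 22.8, 5.13 and 6.92 CPM after i.v. TLZ and 8.85, 11.9 and 8.84 CPM after NanoTLZ. The i.v. TLZ tumors thus lay on both sides of the saline range. Its log2 difference was -0.10 after i.v. TLZ (95% interval -1.28 to 1.08) and -0.34 after NanoTLZ (95% interval -1.51 to 0.84).

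Znrf3 and Rnf43 are ubiquitin ligases that remove Frizzled receptors. Znrf3 had 35.2, 12.2 and 34.4 CPM in saline tumors and 13.2 to 31.7 CPM in treated tumors, with log2 differences of -0.29 and -0.89 (edgeR adjusted p = 0.842 and 0.572). Rnf43 had 13.8, 9.52 and 31.2 CPM in saline tumors and 5.48 to 21.8 CPM in treated tumors. Lef1, a transcription partner of beta-catenin, had 2.80, 1.76 and 0.0915 CPM in saline tumors and 1.30 to 7.36 CPM in treated tumors. Its log2 differences of 1.32 and 1.60 became 0.78 and 1.07 without the third saline tumor.

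Secreted antagonists bind Wnt ligands (the Sfrp proteins and Wif1) or Lrp co-receptors (Dkk1 and Dkk2), while Dkk3 is a divergent family member. Sfrp1 led them per length at 23.1 CPM per kilobase, followed by Dkk3 at 8.65 and Dkk2 at 2.99. Of the 6 tested antagonists 5 had a log2 difference above 0 in each comparison with saline, and Sfrp1 was the exception (-1.075 and -0.18). The 6 had medians of 1.20 after i.v. TLZ and 1.48 after NanoTLZ, beside -0.03 and -0.09 for all tested genes. Sfrp4, among the 5, had only 8, 9 and 3 counts in saline tumors. It passed the count filter through treated tumors alone, which favors a value above 0. Of all tested genes 47.6% and 43.9% were above 0. The fibroblast markers were on the same side, with 11 of 12 above 0 in each comparison and medians of 0.65 and 0.60, and their part in the antagonists was not tested. In edgeR 2 antagonists were higher at an unadjusted p under 0.05 after i.v. TLZ (background 4.91%) and 0 after NanoTLZ (background 3.51%). DESeq2 on the 2 groups compared gave Dkk2, Dkk3 and Sfrp2 such a p for NanoTLZ and none of the 6 an adjusted call. In that fit 7.62% of all genes had an unadjusted p under 0.05 in either direction.

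Dkk3 was one of these. Saline tumors had 8.01, 20.0 and 14.4 CPM, i.v. TLZ tumors 78.2, 43.1 and 15.2 CPM, and NanoTLZ tumors 37.3, 19.1 and 26.1 CPM. The first 2 i.v. TLZ tumors were clearly above saline and the third was not. Its log2 difference was 1.69 after i.v. TLZ (SE 0.57, edgeR adjusted p = 0.437) and 0.96 after NanoTLZ (95% interval -0.29 to 2.21). Without the first i.v. TLZ tumor the former was 1.04, and without the first saline tumor 1.41, both with an unadjusted p above 0.05.

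Sfrp2 had 1.31, 1.0 and 0.229 CPM in saline tumors. After i.v. TLZ it had 15.7, 0.328 and 1.62 CPM, and after NanoTLZ 1.83, 3.16 and 4.03 CPM. A single i.v. TLZ tumor was high, and the log2 difference of 2.79 fell to 0.21 without it. Its unadjusted p under 0.05 held in 2 of the 9 fits that left out 1 tumor. That tumor also had the highest sum of 12 fibroblast markers, 6507 CPM, against 1184 to 3855 CPM in the other 8. The second i.v. TLZ tumor had the lowest fibroblast sum, 1184 CPM, with 0.328 CPM of Sfrp2 and 43.1 CPM of Dkk3. In bulk tissue more cells of a type and more RNA per cell cannot be told apart. The part of fibroblasts in Sfrp2 and Dkk3 was not tested. Sfrp1 had 238, 56.1 and 92.2 CPM in saline tumors and 18.8 to 186 CPM in treated tumors, which overlapped. The summed CPM of all 8 antagonists overlapped too, at 88.2 to 254 in saline tumors and 72.4 to 229 in treated tumors. Dkk2 had 1.55 to 9.71 CPM in saline tumors and 5.68 to 22.7 CPM in treated tumors. Sfrp4 and Wif1 did not exceed 1.60 and 4.70 CPM in any tumor. Dkk1 had at most 1 count and Sfrp5 at most 9 counts in a tumor, below the filter.

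**Figure D4:**
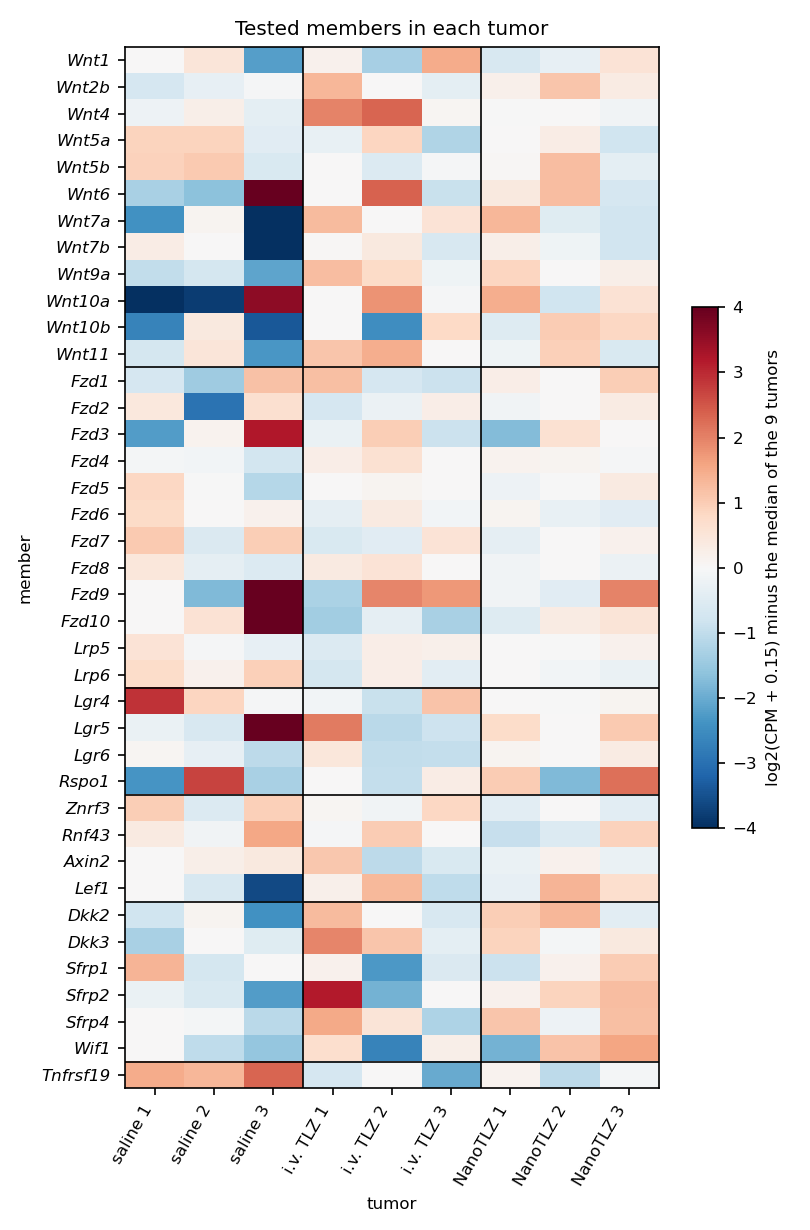
Log2(CPM + 0.15) of the 39 tested members in each tumor minus the median of the 9 tumors, rows in the order of their roles; red is above and blue below the median, and colors saturate at 4 on the log2 scale. The third saline tumor holds many of the deepest colors (Wnt6, Fzd9, Fzd10 and Lgr5 high, Wnt7a and Wnt7b low), and Wnt10a is deep blue in the first saline tumor. Tnfrsf19 in the last row and Lrp6 are above their median in all 3 saline tumors.

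Tumors within the saline group differed from each other in many members. The third saline tumor was the highest of all 9 for 10 of 39 members and the lowest for 15, where 25.6% of all tested genes were highest and 24.2% lowest in it. The members high there included Fzd3 (31.0 CPM against 0.572 to 6.61 in the other 8), Fzd9 (42.6 against 0.429 to 7.65) and Fzd10. Without that tumor 6 of 39 members did not overlap between saline and treated tumors (Wnt6, Wnt9a, Wnt10a and Fzd4 higher, Wnt5a and Tnfrsf19 lower), against 11.4% of all tested genes.

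Other marker lists moved with the groups too. The 8 proliferation genes summed to 564 to 1905 CPM in saline tumors and 240 to 525 CPM in treated tumors. The 7 skeletal muscle markers summed to 25.7 to 675 CPM in saline tumors and 4.33 to 10.7 CPM in treated ones, and the 6 cartilage markers to 272.8 CPM or less in saline tumors and 273.4 to 1223 CPM in treated ones. These 3 lists did not overlap between saline and treated tumors, as Tnfrsf19, Wnt9a and Fzd4 did not, and their part in those members was not tested. Sums of the fibroblast, endothelial, basal, luminal, adipocyte, immune, nerve and hair follicle lists overlapped, which does not speak for each single marker. At an unadjusted p under 0.05 in edgeR, 2 of 7 luminal and 2 of 8 basal markers were lower in all treated tumors against saline (background 8.29%). In the same comparison 2 of 12 fibroblast, 1 of 6 immune and 1 of 6 nerve markers were higher (background 4.8%). The basal list was highest in the third saline tumor, at 3624 CPM.

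Beyond the members, 54 other genes of the pathway were listed, and 50 were tested. Of these 1 was higher and 5 were lower at an unadjusted p under 0.05 in treated tumors against saline (background 4.8% and 8.29%), and 0 passed an adjusted p of 0.05 in edgeR. Celsr2, a planar polarity cadherin, had 736, 416 and 364 CPM in saline tumors and 129 to 245 CPM in treated tumors, with no overlap (log2 -1.40, SE 0.32, adjusted p = 0.271). Vangl1, another planar polarity protein, and Rnf146, a ubiquitin ligase that acts on Axin, had log2 differences of -0.67 and -0.77. Cthrc1, a secreted cofactor of non-canonical Wnt signaling, had a log2 difference of 1.36.

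Sostdc1, an inhibitor that binds Lrp6, and Ror2, a receptor for Wnt5a, had low p-values that came with 1 saline tumor. Sostdc1 had 287 CPM in the third saline tumor and at most 0.709 CPM elsewhere, and Ror2 had 55.3 CPM there and 1.80 to 9.49 CPM elsewhere. Of 16 other Wnt target genes 14 were tested, and Bmp4 was higher and Ephb3 lower at an unadjusted p under 0.05 against the same background, with 0 adjusted calls in edgeR. Ephb3, a guidance receptor, had 149, 111 and 150 CPM in saline tumors and 93.3 to 109 CPM in treated tumors, which did not overlap (log2 -0.45, SE 0.20, adjusted p = 0.366).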

How the data were processed

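Bulk RNA sequencing of 9 mouse mammary tumors was analysed. Unnormalized read counts for each gene and tumor were deposited by the authors; the submitters' processing notes name TopHat2, DESeq2 and the mm10 build, while the counting program, its annotation and its strand setting are not given in the sources used here. Symbols, positions and exon lengths came from GENCODE M21 (GRCm38), which matched 34490 of 35275 identifiers. Exons of 9 members overlap, on the opposite strand, those of another annotated gene, so their counts may include antisense reads. For 6 of them the other gene is also listed (Axin2, Fzd6, Sfrp2, Wnt5a, Wnt7b and Wnt11). For Fzd5, Lef1 and Rspo3 it is not listed, and the overlap covers 17.8%, 13.7% and 13.1% of their exon bases.

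Counts were fitted with edgeR's quasi-likelihood test over all 9 tumors (filterByExpr with at least 10 counts and 15 in total, TMM scaling, group as the only term), with Benjamini-Hochberg adjustment over 15821 genes. The biological coefficient of variation was 49.8%. The scripts were tested on simulated data. DESeq2, other scalings and filters, and fits leaving out 1 tumor were the alternatives. The floor of detection was 3 counts per tumor and covers counting error only. Members, gene lists and tests were chosen with earlier results of these data known. The genes named are Tnfrsf19, the feedback genes, Lef1 and Lgr5. Named too are the members with an unadjusted p under 0.05 or with groups that do not overlap, and the most abundant members of each role. All other members given with values (those named for the third saline tumor, such as Wnt10a, Wnt6, Wnt7a and Fzd9, and Wnt2b, Wnt5a, Wnt10b, Wnt11, Fzd1, Fzd2, Fzd5, Fzd6, Fzd8, Rspo1, Dkk2, Sfrp4, Wif1 and the members below the filter) were chosen after their values were seen.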

Additional observations from a re-analysis of the deposited data

How the results depend on the processing

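No paired analysis was possible because no replicate number in the labels ties a tumor of one group to a tumor of another. DESeq2 changed the number of called genes: it called 92 genes after i.v. TLZ on 2 groups, 194 on 9 tumors and 252 without the Cook distance filter, where edgeR called 0. After NanoTLZ it called 169, 101 and 155 (edgeR 1), between the formulations 15, 3 and 7 (edgeR 0), and for all treated tumors 366, 273 and 375 (edgeR 3); the cause was not tested. Without a count filter edgeR called 5, 6 and 33 genes in the comparisons with saline, with at least 10 counts in every tumor 1 for all treated tumors, and on the groups compared alone 0 for NanoTLZ and 6 for all treated tumors. Leaving out 1 tumor gave 0 to 3 called genes for NanoTLZ (3 without saline 1, 0 without saline 2, i.v. TLZ 3 or NanoTLZ 2) and 0 to 18 for all treated tumors (18 without saline 1). Members with an unadjusted p under 0.05 numbered 12, 11 and 16 of 40 without saline 2 (all tested genes 16.1%, 15.6% and 19.3%), in place of 7, 5 and 6 of 39 (10.4%, 8.99% and 13.1%); NanoTLZ had 1 without NanoTLZ 1 (4.91%) and 2 without NanoTLZ 2 (5.3%), and 11 of 48 members passed for all treated tumors without a filter (10.8%). Leaving out the third saline tumor, an alternative chosen after seeing the data, moved the members without overlap from 3 to 6.

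Of 60 single gene results, 18 turned direction somewhere, none of them past the threshold. Lrp5 turned under upper quartile scaling, to 0.05 after NanoTLZ and 0.01 for all treated tumors. All other turns came from leaving out 1 tumor. After i.v. TLZ the log2 ranges were -0.25 to 0.22 (Lrp5), -3.86 to 1.43 (Lgr5), -0.81 to 0.30 (Rnf43), -0.14 to 0.97 (Wnt7b), -0.62 to 0.31 (Lgr6) and -1.05 to 0.25 (Axin2). After NanoTLZ they were -0.76 to 0.16 (Wnt5b), -0.20 to 0.27 (Lrp5), -0.70 to 0.64 (Sfrp1), -2.50 to 1.27 (Lgr5), -0.08 to 0.23 (Wnt4) and -0.30 to 0.81 (Wnt7b). For all treated tumors they were -0.23 to 0.25 (Lrp5), -0.99 to 0.18 (Sfrp1), -2.91 to 1.35 (Lgr5), -0.91 to 0.12 (Rnf43), -0.22 to 0.89 (Wnt7b) and -0.05 to 0.57 (Lgr6). Tnfrsf19 and Wnt9a kept their direction under all 18 alternatives: -3.04 to -2.09 and 1.56 to 2.21 after i.v. TLZ, -2.31 to -1.66 and 1.29 to 1.89 after NanoTLZ. Depth limits the members near the floor, such as Rspo4, Wnt9b and Dkk1.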
